A study of Mus musculus with 13 samples.

Results

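The genes described here mark T cells, natural killer (NK) cells and B cells, or encode their effector and checkpoint molecules, and they were read in chemically induced skin tumours of mice with and without the histone methyltransferase G9a. The set was chosen by name and holds 49 genes. Of these, 45 had a probe set whose only gene symbol was theirs, among 17097 genes measured in that way, and Lck, Tcf7, Il7r and Tigit were not analysed here. Where several probe sets named 1 gene, the one with the highest mean across the arrays was used.

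Tumours labelled as squamous cell carcinoma (SCC) came from G9a WT mice (n = 6 arrays) and from G9a cKO mice (n = 7 arrays), where cKO stands for a conditional knockout of G9a. Both groups carried the same treatment: back skin was treated from 8 weeks of age with the carcinogen DMBA (0.25 mg/ml) and the tumour promoter TPA (0.02 mg/ml), 200 µl each, every week for 6 weeks, and TPA was continued for at most 20 weeks. The strain, the promoter that drives Cre, and so the cells that lost G9a, were not stated in the sources used here, nor is it said whether every tumour came from a different mouse. The p-values therefore measure the spread between these samples, part of which may be technical.

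T cells recognise antigen through the T cell receptor, whose signal leaves the cell surface through the CD3 chains and the zeta chain and is passed on by kinases such as Zap70. Cytotoxic T cells and NK cells kill by releasing perforin and granzymes, and B cells carry a receptor made of immunoglobulin and the Cd79a and Cd79b chains. In skin, resident and recruited T cells lie in the epidermis and dermis, and in tumours their activity is held back by checkpoint receptors such as Pdcd1, Ctla4 and Lag3. In RNA from a whole tumour, fewer cells of a type and less RNA per cell cannot be told apart.

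The values are log2 expression after RMA, a method that corrects for background, equalises arrays and summarises the probes of a probe set. Array medians lay between 5.09 and 5.14, and the SD over probe sets was 1.91 to 1.94 on WT and 1.83 to 1.88 on cKO arrays. These SD ranges do not meet, so the spread of the deposited probe set values differed with the group, and the reason was not tested. Ehmt2, the gene of G9a, had a pair of probe sets: number 2 read 8.33 ± 0.19 (SD, n = 6) in WT and 6.01 ± 0.10 (SD, n = 7) in cKO tumours (two-sided exact permutation p = 0.000583), and number 1 read 7.29 ± 0.19 and 7.42 ± 0.04 (exact permutation p = 0.131; after quantile normalization p = 0.00233). Which probe set lies in the deleted part is not given, and one outside it checks nothing. Neighbouring arrays of a group deviate from its mean in opposite directions (r of their deviations between -0.956 and -0.88 in 6 pairs). The spread between tumours is thus not fully captured by the p-values, and calls are also given from a fit with a term for neighbouring arrays. All 9 measured keratinocyte markers exceeded the background level defined below on every array of both groups.

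Most of the lymphocyte genes lay low on the array, close to probe sets that match no mouse gene. The array carries 23 nonspecific control probe sets, and a gene was called above background in a group when it exceeded the upper quartile of these controls on every array of that group. That level lay between 4.29 and 4.44 on WT and between 4.17 and 4.32 on cKO arrays. In WT tumours 22 of 45 lymphocyte genes (48.9%) were above it, against 73.5% of all genes. In cKO tumours 30 of 45 (66.7%) were above it, against 78.6% of all genes. With 1 fixed level for all arrays (a choice made after seeing the data), the counts were 25 and 30, and against the median of the controls they were 43 and 42, in the opposite order.

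The 22 genes above background in WT tumours were also above it in cKO tumours, and 8 more passed in cKO tumours only: the kinase gene Zap70, the granzyme gene Gzmb, the NK receptor gene Klrk1, the checkpoint receptor gene Pdcd1 and the B cell genes Cd72, Pax5, Blk and Ighm. Passing in 1 group only is no difference in level: Pdcd1 read 4.40 ± 0.07 in WT and 4.36 ± 0.04 in cKO tumours, and the control level it is set against was lower on cKO arrays. Against the highest control of each array, Cd247 and Prf1 passed in WT and Cd247, Cd8a, Cd6 and Prf1 in cKO tumours. These are 2 and 4 of 45, against 35.4% and 40.2% of all genes. For Cd247, Cd8a and Prf1 only the probe set used lay so high. Group means of their other probe sets reached at most 4.835, 4.425 and 4.595. In both groups 9 genes stayed at or below the upper quartile of the controls on every array, and the early activation marker Cd69, Ctla4 and the B cell marker Ms4a1 are 3 of these that still passed the test between groups. Of all genes that dim, 43.5% did so.

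**Figure D1:**
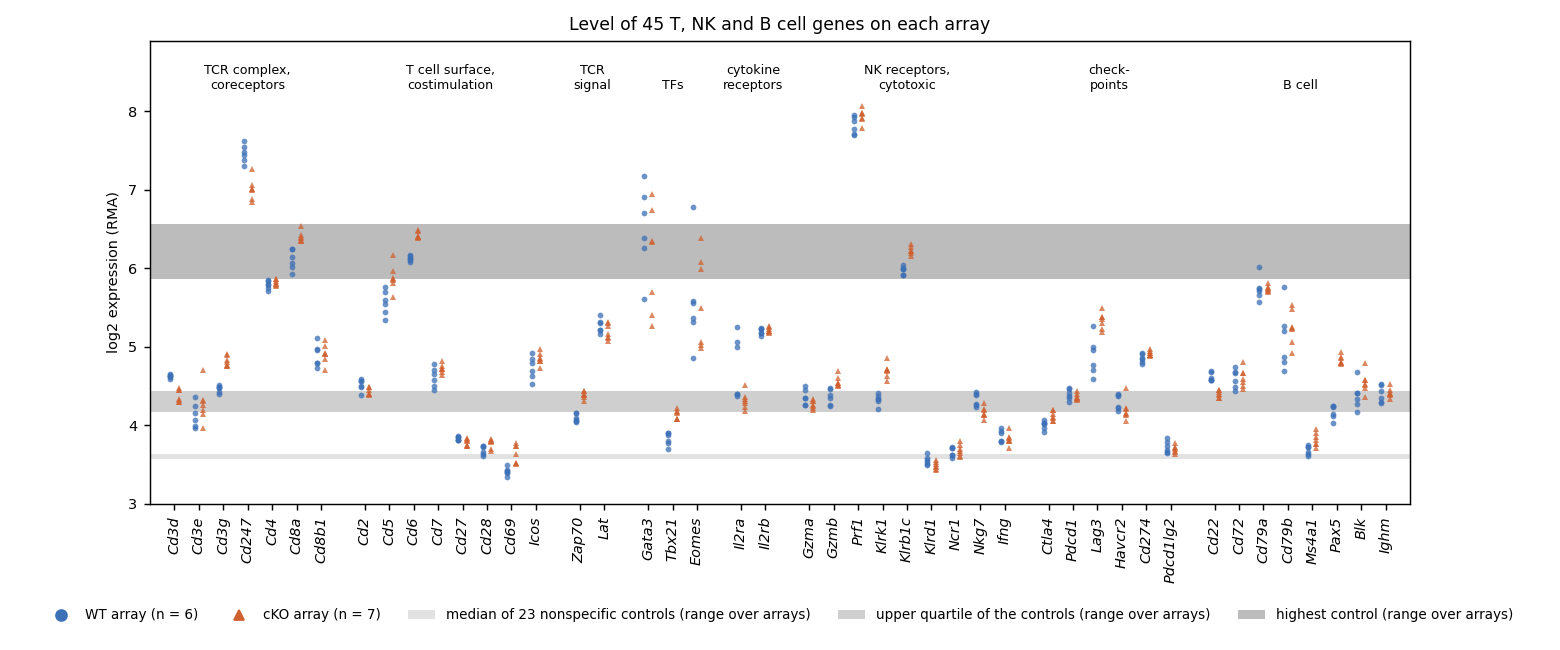
Log2 expression of the 45 lymphocyte genes on each array (vertical axis), grouped by role along the horizontal axis, with WT arrays as circles (n = 6) and cKO arrays as triangles (n = 7). Grey bands give the range over arrays of the median, the upper quartile and the highest of the 23 nonspecific controls. Prf1 and Cd247 lie above the highest control on every array, and many genes lie within or under the upper-quartile band.

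Between the groups the lymphocyte genes differed about as often as genes at large, in both directions and by small amounts. By limma's moderated test, adjusted over all 17097 genes by Benjamini-Hochberg with a threshold of 0.05, 19 of 45 genes (42.2%) passed, against 45.8% of all genes. Of these, 14 (31.1%) were higher in cKO tumours, against 25.7% of all genes, and 5 (11.1%) were lower, against 20.1%. When the values were quantile normalized again the split was 15 higher and 9 lower. With neighbouring arrays as a term, which called 24.7% of all genes, 9 of the 14 and 3 of the 5 also passed, 12 of 45 in all, while 14.4% and 10.3% of all genes were called higher and lower in both fits. These shares lie near those of all genes and are no result about lymphocyte genes. The counts for the smaller groups of genes below stand against the same shares of all genes.

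The sizes were small as well. Differences (cKO minus WT, log2) ran from -0.46 to 0.67 with a median of 0.03, against a median of 0.02 over all genes, and the median size regardless of sign was 0.12, against 0.16. None of the 45 passed the test with a change over 2-fold, as 1.78% of all genes did. The 23 nonspecific controls, which match no gene, themselves differed by -0.31 to 0.08 between the groups. Their names carry a GC number, and the sign went with it. Controls numbered 3 to 15 were higher in cKO tumours and those numbered 16 to 25 lower. Controls 19 and 20, which lay near the background level, differed by -0.11 and -0.13. The counts of 22 and 30 genes above background are thus set against a level that was itself lower in cKO tumours. Regardless of sign, 11 of the 19 called differences were no larger than 0.31, as were 56.5% of the called differences over all genes. The control difference of that size was a fall. All called rises exceeded the largest control rise of 0.08, the smallest being that of Ctla4 at 0.12. The 18 hybridisation controls, which read RNA or DNA added to each sample and no mouse gene, were all higher in cKO tumours, by 0.06 to 0.49. Of the 19 called differences, 18 were no larger than 0.49 in size, and so were 13 of the 14 rises, all but that of Pax5. The part of these control differences in the lymphocyte differences was not tested. The groups did not overlap for 13 genes (28.9%), against 23% of all genes.

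**Figure D2:**
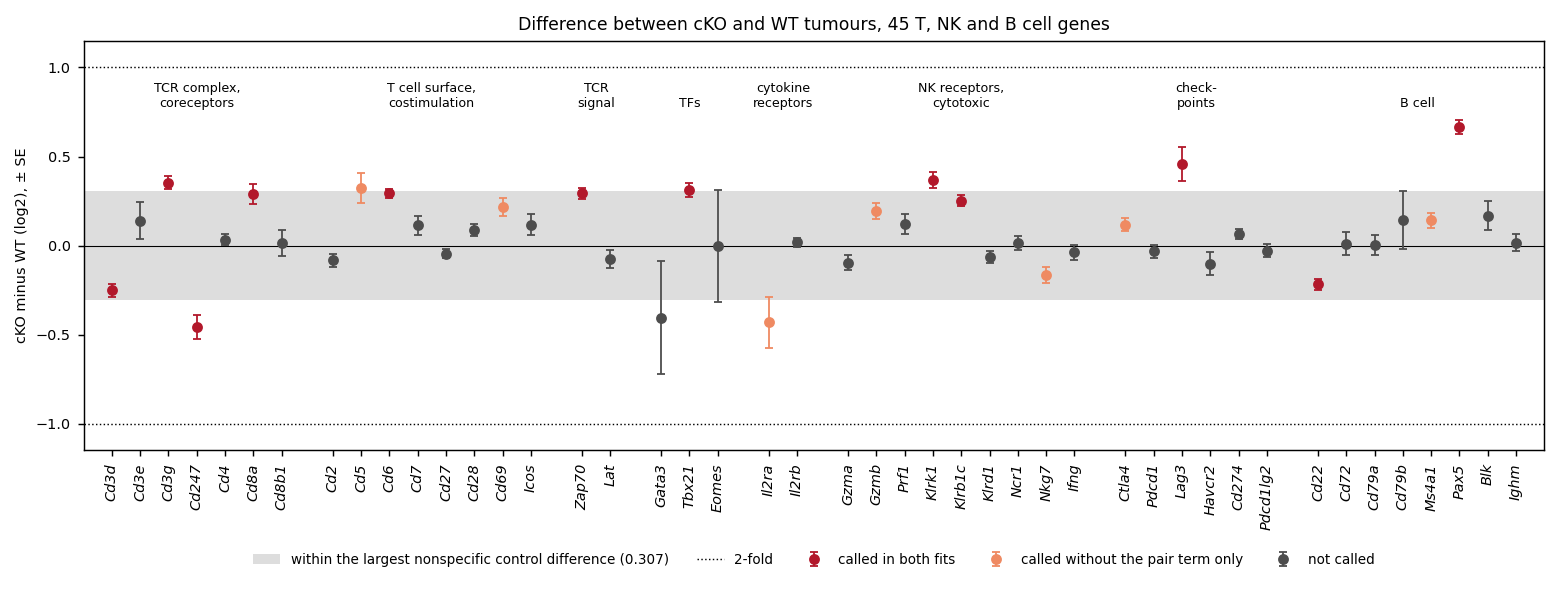
Difference between cKO and WT tumours on the log2 scale (vertical axis, point with its SE) for the 45 lymphocyte genes in the order of their roles. Colours separate the 12 genes called in both fits, the 7 called only without the term for neighbouring arrays and the 26 not called. The grey band spans the largest nonspecific control difference (0.307 in size, a fall) on both sides of 0, and the dotted lines mark 2-fold. Every point lies inside the 2-fold lines, with Pax5 the highest at 0.67 and Cd247 the lowest at -0.46.

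Among the chains of the T cell receptor complex, Cd3g and Cd3d, each read by 1 probe set, differed in opposite directions. By the probe sets used, 2 of 7 genes of the complex and its coreceptors rose (Cd3g and Cd8a) and 2 fell (Cd3d and Cd247). All 4 passed in both fits, and the median difference was 0.03. Cd8a and Cd247 each had at least 1 other probe set called in the opposite direction. Cd3g and Cd3d encode the CD3 gamma and delta chains, and their promoters are shown because these neighbours, read from opposite strands of chromosome 9 with starts 1355 bases apart, differed with opposite signs. Each sequence holds the 250 bases before the gene's start (RefSeq, GRCm38.p6; Cd3g chr9:44980432-44980681, minus strand; Cd3d chr9:44981536-44981785, plus strand), and capitals mark matches to 3 short motifs searched on both strands. The RUNX motif was searched as TGTGGT. For factors of the Gata family the letters were AGATAA. The ETS motif was searched as AGGAAG.
Cd3g: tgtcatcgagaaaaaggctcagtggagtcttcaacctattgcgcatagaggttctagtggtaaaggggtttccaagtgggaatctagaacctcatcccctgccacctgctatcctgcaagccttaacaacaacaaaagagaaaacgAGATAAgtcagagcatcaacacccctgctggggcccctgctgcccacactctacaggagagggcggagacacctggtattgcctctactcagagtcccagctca
Cd3d: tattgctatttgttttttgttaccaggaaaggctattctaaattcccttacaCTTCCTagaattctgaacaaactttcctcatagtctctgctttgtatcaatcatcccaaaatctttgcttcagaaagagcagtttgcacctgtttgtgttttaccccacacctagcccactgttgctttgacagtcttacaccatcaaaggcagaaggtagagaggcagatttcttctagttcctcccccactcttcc
The Cd3g window holds 1 Gata match, whose first base is at -104 from the start, and the Cd3d window holds 1 ETS match on the opposite strand at -198. Among 32851 promoters of the same length, 14.0% hold the RUNX letters, 10.0% the Gata letters and 29.5% the ETS letters. Among the 33 promoters found for 30 of the lymphocyte genes the shares are 30.3%, 9.1% and 51.5%. A match is a description of letters only.

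On WT arrays Cd3g ran from 4.40 to 4.51 with a median of 4.48, and on cKO arrays from 4.75 to 4.91 with a median of 4.81. All 7 cKO arrays lay above all 6 WT arrays, a rise of 0.35 ± 0.04 (log2, SE) or 1.28-fold (limma adjusted p = 7.91e-06, and 0.00325 with neighbouring arrays as a term). Cd3d ran from 4.59 to 4.65 (median 4.63) on WT and from 4.29 to 4.48 (median 4.33) on cKO arrays. Here every cKO array lay below every WT array, a fall by 0.25 ± 0.04 (limma adjusted p = 0.000154, and 0.0123 with the term). The Cd3d fall was smaller than the largest nonspecific control fall of 0.31. Its call was lost with the replicate number as a block (limma adjusted p = 0.0711). The third CD3 chain, epsilon, encoded by Cd3e beside them, ran from 3.97 to 4.36 (median 4.11) on WT and from 3.97 to 4.70 (median 4.25) on cKO arrays. Its groups overlapped and its difference of 0.14 ± 0.10 did not pass (limma adjusted p = 0.288).

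Cd247, the zeta chain that carries most of the signalling motifs of the complex, was read differently by its 4 probe sets. Only the brightest of them lay far above background. The probe set used ran from 7.30 to 7.62 (median 7.46) on WT and from 6.85 to 7.27 (median 7.01) on cKO arrays, without overlap. It fell by 0.46 ± 0.07 (limma adjusted p = 0.000181, and 0.0103 with the term), which is 1.37-fold. Another Cd247 probe set was higher in cKO tumours, at 4.40 ± 0.06 against 4.04 ± 0.07 in WT, by 0.36 (limma adjusted p over all probe sets 1.05e-05), and it was at or under background on all WT arrays. The remaining probe sets gave 0.10 (adjusted p = 0.0441) and 0.04 (adjusted p = 0.251), and the mean over all 4 gave 0.01 (limma adjusted p = 0.786), so no direction can be given for the gene as a whole.

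The coreceptors separate helper from cytotoxic T cells. Cd8a, the alpha chain of the cytotoxic coreceptor, ran from 5.93 to 6.25 (median 6.11) on WT and from 6.35 to 6.54 (median 6.38) on cKO arrays. The groups did not overlap, and the rise was 0.29 ± 0.05 or 1.22-fold (limma adjusted p = 0.000872, and 0.0232 with the term). Its dimmer probe sets gave 0.06 (limma adjusted p = 0.284) and, at or under background on all arrays, -0.08 (limma adjusted p = 0.0257). Cd8b1, the beta chain that pairs with it, was at 4.90 ± 0.15 on WT and 4.91 ± 0.12 on cKO arrays, and its difference of 0.02 did not pass (limma adjusted p = 0.88). Cd4, the coreceptor of helper T cells, ran from 5.71 to 5.85 (median 5.79) on WT and from 5.78 to 5.87 (median 5.82) on cKO arrays, overlapping, with a difference of 0.03 ± 0.03 (limma adjusted p = 0.356).

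Of 8 surface and costimulatory receptors of T cells, 3 rose (Cd5, Cd6 and Cd69), none fell by limma (1, Cd2, at an unadjusted p under 0.05), and Cd6 alone passed in both fits. Cd6, a scavenger-receptor family protein that tunes T cell activation, ran from 6.09 to 6.17 (median 6.12) on WT and from 6.39 to 6.48 (median 6.40) on cKO arrays. The bands are narrow and separate, with a rise of 0.29 ± 0.03 or 1.23-fold (limma adjusted p = 3.94e-06, and 0.0029 with the term). Its relative Cd5, a brake on receptor signalling, read 5.56 ± 0.16 in WT and 5.88 ± 0.16 in cKO tumours, with overlapping groups, 0.32 ± 0.09 (limma adjusted p = 0.00776, and 0.0663 with the term). Cd69 gave 0.22 (limma adjusted p = 0.00386, and 0.0541 with the term) and lay at or under background in both groups. The adhesion receptor Cd2 (-0.08), Cd7 (0.11) and the costimulatory receptors Cd27 (-0.05), Cd28 (0.09) and Icos (0.12) did not pass, with limma adjusted p between 0.0613 and 0.174.

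Downstream of the receptor, the kinase Zap70 and the adaptor Lat were measured. Zap70 ran from 4.04 to 4.16 (median 4.08) on WT and from 4.30 to 4.44 (median 4.39) on cKO arrays. The groups did not overlap and the measured rise was 0.29 ± 0.03 (limma adjusted p = 1.56e-05, and 0.00427 with the term). All 6 WT values lie at or under background, so the fold is given as a bound, in which the dim group is set array by array at the background level or its own value, whichever is higher: Zap70 in cKO tumours exceeded WT by at least 1.02-fold. Lat differed by -0.07 and did not pass (limma adjusted p = 0.268).

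The 3 measured transcription factors direct helper and cytotoxic programmes of T and NK cells. Tbx21, which drives the type 1 helper programme and interferon gamma, ran from 3.70 to 3.90 (median 3.83) on WT and from 4.07 to 4.22 (median 4.15) on cKO arrays. The groups did not overlap, with a rise of 0.31 ± 0.04 (limma adjusted p = 6.96e-05, and 0.00792 with the term), but the gene exceeded background on 0 of 6 WT and 1 of 7 cKO arrays and no fold is given. Gata3, the type 2 helper factor, which keratinocytes also express, and Eomes, a factor of cytotoxic and NK cells, varied most among tumours. Gata3 ran from 5.60 to 7.18 on WT and from 5.26 to 6.95 on cKO arrays, and its difference of -0.40 ± 0.32 did not pass (limma adjusted p = 0.319). Eomes ran from 4.86 to 6.78 and from 4.98 to 6.39, with a difference of 0.00 (-0.003 ± 0.316, limma adjusted p = 0.995).

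The interleukin 2 receptor chains gave 1 fall that depends on single arrays. Il2ra, the alpha chain carried by activated and regulatory T cells, read 4.75 ± 0.40 in WT and 4.32 ± 0.11 in cKO tumours, with overlapping groups and a difference of -0.43 ± 0.15 (limma adjusted p = 0.0277, and 0.127 with the term). The call was lost without WT replicate 2, 6 or 9 or cKO replicate 3. Its other probe set, at or under background throughout, was higher by 0.11 (limma adjusted p over all probe sets 0.023). The beta chain gene Il2rb read 5.20 and 5.22 (limma adjusted p = 0.603), and a dimmer probe set of it was higher by 0.18 (limma adjusted p over all probe sets 0.00668).

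Among 9 genes of NK receptors and cytotoxic effectors, 3 rose (Klrk1, Klrb1c and Gzmb), 1 fell (Nkg7), and the 2 receptors passed in both fits. Klrk1 encodes NKG2D, an activating receptor for stress ligands on tumour cells, and Klrb1c encodes NK1.1, a marker of NK cells in some mouse strains. Their promoters are shown because these genes lie in 1 cluster of NK receptor genes on chromosome 6 and both rose. Klrd1, another killer lectin receptor gene, did not pass (below), and the cluster as a whole was not tested. The windows are from RefSeq, GRCm38.p6 (Klrk1 chr6:129623865-129624114, Klrb1c chr6:128788642-128788891, both minus strand, capitals as above).
Klrk1: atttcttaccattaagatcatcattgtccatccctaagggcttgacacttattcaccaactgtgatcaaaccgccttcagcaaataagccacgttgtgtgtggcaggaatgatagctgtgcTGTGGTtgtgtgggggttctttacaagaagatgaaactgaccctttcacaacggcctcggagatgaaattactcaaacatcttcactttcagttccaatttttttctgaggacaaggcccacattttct
Klrb1c: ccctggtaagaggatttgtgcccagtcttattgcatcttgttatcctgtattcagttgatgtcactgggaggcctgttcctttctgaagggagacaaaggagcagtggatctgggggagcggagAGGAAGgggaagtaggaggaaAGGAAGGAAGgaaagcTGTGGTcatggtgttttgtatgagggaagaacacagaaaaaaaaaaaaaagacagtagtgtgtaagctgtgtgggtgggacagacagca
The Klrk1 window has 1 RUNX match at -129. The Klrb1c window has 1 RUNX match at -89 and 3 ETS matches at -126, -105 and -101, of which the last 2 overlap.

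Klrk1 ran from 4.21 to 4.41 (median 4.33) on WT and from 4.56 to 4.86 (median 4.71) on cKO arrays. All cKO arrays were higher than all WT arrays, by 0.37 ± 0.05 as measured (limma adjusted p = 4.6e-05, and 0.00642 with the term), with only 2 of 6 WT arrays above background, so no fold is given. Klrb1c, above background in both groups, ran from 5.91 to 6.04 (median 5.99) on WT and from 6.16 to 6.31 (median 6.22) on cKO arrays. It rose without overlap by 0.25 ± 0.03 or 1.19-fold (limma adjusted p = 5.44e-05, and 0.00856 with the term). Ncr1 encodes NKp46, the receptor most particular to NK cells as background knowledge has it. It ran from 3.59 to 3.72 (median 3.67) on WT and from 3.59 to 3.80 (median 3.67) on cKO arrays, overlapping and at or under background, with a difference of 0.02 (limma adjusted p = 0.761). The killer lectin receptor gene Klrd1, a partner of inhibitory and activating NK receptors, differed by -0.06 (limma adjusted p = 0.127).

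The killing machinery gave no common direction. Prf1, the pore-forming protein, is read by 2 probe sets. The brighter one, used here, ran from 7.70 to 7.95 (median 7.82) on WT and from 7.79 to 8.07 (median 7.97) on cKO arrays, far above background in both. The groups overlapped and the difference of 0.12 ± 0.05 did not pass (limma adjusted p = 0.0832), whereas after quantile normalization it was 0.26 (limma adjusted p = 0.00134). The other Prf1 probe set was far dimmer, at 4.558 in WT and 4.595 in cKO tumours, though above background on every array. It differed by 0.04 (limma adjusted p over all probe sets 0.241), so the high level of Prf1 rests on 1 of its probe sets. Gzmb, the granzyme of activated killer cells, ran from 4.25 to 4.47 (median 4.37) on WT and from 4.50 to 4.69 (median 4.53) on cKO arrays. The groups did not overlap, 0.19 ± 0.05, and the call held without the term but not with it (limma adjusted p = 0.00452 and 0.0561). Gzma differed by -0.10 (limma adjusted p = 0.0899), and Nkg7, a granule protein, by -0.16 (limma adjusted p = 0.00866, and 0.0836 with the term). Ifng, the cytokine of type 1 responses, ran from 3.78 to 3.96 (median 3.85) on WT and from 3.71 to 3.96 (median 3.82) on cKO arrays. These values lie at or under background and overlap, with a difference of -0.04 ± 0.04 (limma adjusted p = 0.511).

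Of 6 checkpoint genes, Lag3 and Ctla4 rose, none fell by limma (0 at an unadjusted p under 0.05), and Lag3 alone passed in both fits. Lag3, an inhibitory receptor that binds MHC class II, ran from 4.58 to 5.27 (median 4.86) on WT and from 5.19 to 5.50 (median 5.35) on cKO arrays. The groups overlapped by a small margin and the rise was 0.46 ± 0.10 or 1.37-fold (limma adjusted p = 0.00198, and 0.0322 with the term). Ctla4, which competes with Cd28 for its ligands, gave 0.12 at or under background (limma adjusted p = 0.015, and 0.116 with the term). Pdcd1, the PD-1 receptor, ran from 4.30 to 4.48 (median 4.39) on WT and from 4.32 to 4.43 (median 4.35) on cKO arrays, overlapping, with -0.03 ± 0.03 (limma adjusted p = 0.446). Its ligands Cd274 (0.07) and Pdcd1lg2 (-0.03) and the receptor Havcr2 (-0.10) did not pass, with limma adjusted p between 0.0765 and 0.548.

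Among 8 B cell genes 2 rose (Pax5 and Ms4a1), 1 fell (Cd22), and the median difference was 0.08. Pax5, the transcription factor that commits cells to the B lineage, had the highest difference of the 45 genes, and its promoter is shown for that reason (RefSeq, GRCm38.p6; chr4:44710695-44710944, minus strand).
Pax5: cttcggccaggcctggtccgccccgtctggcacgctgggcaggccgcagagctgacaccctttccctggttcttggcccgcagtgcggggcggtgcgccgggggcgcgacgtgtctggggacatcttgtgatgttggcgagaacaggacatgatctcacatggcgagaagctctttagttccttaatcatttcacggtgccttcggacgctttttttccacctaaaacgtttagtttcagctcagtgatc
The window holds 0 matches to the 3 motifs, which says only that these letters are not in these 250 bases. On WT arrays Pax5 ran from 4.03 to 4.25 (median 4.18), at or under background on all 6, and on cKO arrays from 4.78 to 4.94 (median 4.80), above it on all 7. The measured difference was 0.67 ± 0.04 (limma adjusted p = 2.18e-07, and 0.000573 with the term), and against the background level the rise of Pax5 was at least 1.39-fold.

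Of the other B cell genes, Ms4a1 rose in the fit without the term. Cd79a, the signalling chain of the B cell receptor, ran from 5.58 to 6.02 (median 5.72) on WT and from 5.70 to 5.81 (median 5.74) on cKO arrays. The groups overlapped and the difference was 0.00 (0.003 ± 0.057, limma adjusted p = 0.967). Ms4a1, the CD20 antigen of mature B cells, ran from 3.61 to 3.74 (median 3.69) on WT and from 3.71 to 3.96 (median 3.81) on cKO arrays, at or under background in both. It gave 0.14 ± 0.04 with overlapping groups (limma adjusted p = 0.0159, and 0.11 with the term), and its other probe set, equally dim, 0.13 (limma adjusted p over all probe sets 0.000985). Cd22, an inhibitory coreceptor of B cells, ran from 4.57 to 4.69 (median 4.59) on WT and from 4.34 to 4.45 (median 4.40) on cKO arrays, without overlap, a fall by 0.22 ± 0.03 (limma adjusted p = 0.00012, and 0.00939 with the term). Its other probe set was higher by 0.20 (limma adjusted p over all probe sets 0.0016), so the gene has no single direction. Cd79b (0.15), Cd72 (0.01), the kinase gene Blk (0.17) and the immunoglobulin heavy chain gene Ighm (0.02) did not pass, with limma adjusted p between 0.11 and 0.916.

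Different probe sets of a gene often disagreed. Of the 11 lymphocyte genes read by more than 1 probe set (27 probe sets in all), 4 had probe sets called in opposite directions: Cd22, Cd247, Cd8a and Il2ra. For Cd22, Cd247 and Il2ra the used probe set was lower and another higher in cKO tumours, which leaves Cd3d and Nkg7, each read by 1 probe set, as the called decreases without a conflicting reading. For Icos, the used probe set did not pass and a dimmer one was higher by 0.23 (limma adjusted p over all probe sets 1.84e-05). For Cd28 a dimmer probe set was lower by 0.10 (limma adjusted p over all probe sets 0.0115).

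**Figure D3:**
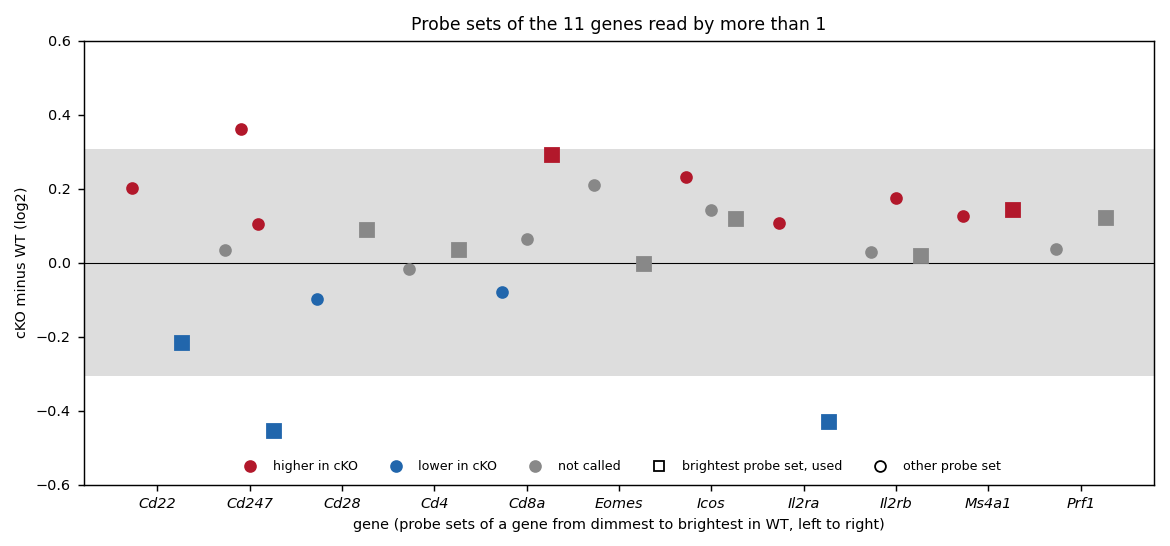
Difference between cKO and WT tumours on the log2 scale (vertical axis) for every probe set of the 11 lymphocyte genes with more than 1, ordered within a gene from the dimmest to the brightest in WT. Squares are the probe sets used and circles the others, coloured by call over all probe sets. The grey band spans the size of the largest nonspecific control difference, a fall, in both directions. Red and blue marks appear together for Cd22, Cd247, Cd8a and Il2ra.

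Within each group most of these genes varied little from array to array. The SD was under 0.2 for 40 of 45 genes on WT and 41 of 45 on cKO arrays, with medians of 0.08 and 0.07, and it reached 0.64 for Eomes in WT and 0.66 for Gata3 in cKO tumours. The mean of the 45 genes per array ran from 4.71 to 4.81 on WT and from 4.80 to 4.85 on cKO arrays. The ranges touch because WT replicate 2 (4.806) lies above cKO replicate 2 (4.795). WT replicate 2 had the highest value of its group for 14 of the 45 genes and the lowest for 0, and WT replicate 4, its neighbour in order, had the lowest for 11 and the highest for 2.

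Other genes of the same cells, taken from lists chosen with earlier results of these data known, moved in both directions as well. Over all genes 45.8% were called, 25.7% higher and 20.1% lower, and the counts of these lists stand against those shares. Among 23 other T cell genes 10 were higher and 2 lower (52.2% called), with a median of 0.08. Lcp2, the adaptor SLP-76, rose by 0.40 (limma adjusted p = 4.81e-06, and 0.00257 with the term), and the GTPase gene Gimap4 by 0.52 from a WT level at or under background (limma adjusted p = 2.9e-05, and 0.0044 with the term). Among 13 genes of regulatory and gamma-delta T cells, of which Blk is also counted above, 4 were higher and 2 lower (46.2% called). Foxp3, the factor of regulatory T cells, rose from 4.29 ± 0.04 to 4.78 ± 0.04 (limma adjusted p = 1.26e-07, and 0.000622 with the term). It was above background on only some WT arrays. Ikzf4, also part of that programme, fell by 0.42 (limma adjusted p = 0.000175).

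Among 17 other NK and cytotoxic genes 7 were higher and 2 lower (52.9% called, against 45.8% of all genes). Klrg1, a receptor of mature killer cells, rose by 0.35 (limma adjusted p = 0.000174, and 0.0118 with the term). Ccl5, a chemokine of activated T and NK cells, fell from 4.54 ± 0.09 to 4.11 ± 0.08 (limma adjusted p = 1.84e-05, and 0.00346 with the term), and only some cKO arrays were above background. Among 14 other B cell and plasma cell genes 6 were higher and 1 lower (50% called). The complement receptor gene Cr2 rose by 0.39 (limma adjusted p = 3.62e-07) and Ebf1, an early B cell factor that stromal cells also express, by 0.48 (limma adjusted p = 0.000815), and the low-affinity IgE receptor gene Fcer2a fell by 0.34 (limma adjusted p = 0.00299), all 3 in both fits. Cr2 and Ebf1 were above background on only some WT arrays.

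Of 18 genes shared by all leukocytes, 4 were higher and 1 lower (27.8% called, against 45.8% of all genes), with a median of 0.05. Ptprc, the CD45 antigen that defines leukocytes (named after its values were seen), read 3.47 ± 0.06 and 3.46 ± 0.12, at or under background on every array (limma adjusted p = 0.884). Cd53, a leukocyte tetraspanin, stood apart with 4.44 ± 0.60 in WT and 7.39 ± 0.58 in cKO tumours (limma adjusted p = 1.16e-05, and 0.0027 with the term), and was above background on only some WT arrays. The lymphocyte factor gene Ikzf1 rose by 0.29 (limma adjusted p = 1.32e-05) and Dock2, needed for lymphocyte migration, fell by 0.36 (limma adjusted p = 0.00149), both also with the term. Dock2 was above background on only some cKO arrays.

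Markers of other cells in the tumour moved beside these genes, and their part in the lymphocyte differences was not tested. The called shares of these lists stand against 45.8% of all genes. Of 10 fibroblast markers 7 rose and none fell (70% called), with a median of 0.96. The list's mean per array ran from 4.36 to 5.15 on WT and from 5.62 to 6.15 on cKO arrays. Of 10 endothelial markers 7 rose and none fell (70% called), with a median of 0.80 and list means of 4.52 to 5.51 and 5.60 to 5.98. Thy1, listed here as a fibroblast marker and also carried by T cells, rose by 1.42 (limma adjusted p = 1.55e-05). Macrophage and monocyte markers gave 4 higher and 1 lower of 12 (41.7% called, list means 4.58 to 4.72 and 4.63 to 5.23), dendritic and Langerhans cell markers 0 higher and 2 lower of 9 (22.2% called, 5.45 to 5.55 and 5.36 to 5.56). Neutrophil markers gave 4 higher and 0 lower of 9 (44.4% called, 5.07 to 5.98 and 5.08 to 5.51) and mast cell markers 5 higher and 1 lower of 9 (66.7% called, 4.55 to 4.62 and 4.63 to 4.68). At an unadjusted limma p under 0.05 the 0 counts would be 0 for fibroblast and endothelial markers, 1 for dendritic cell and 1 for neutrophil markers. Keratinocyte markers gave 1 higher and 2 lower of 9 (33.3% called, 10.6 to 11.2 and 10.5 to 11.4).

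**Figure D4:**
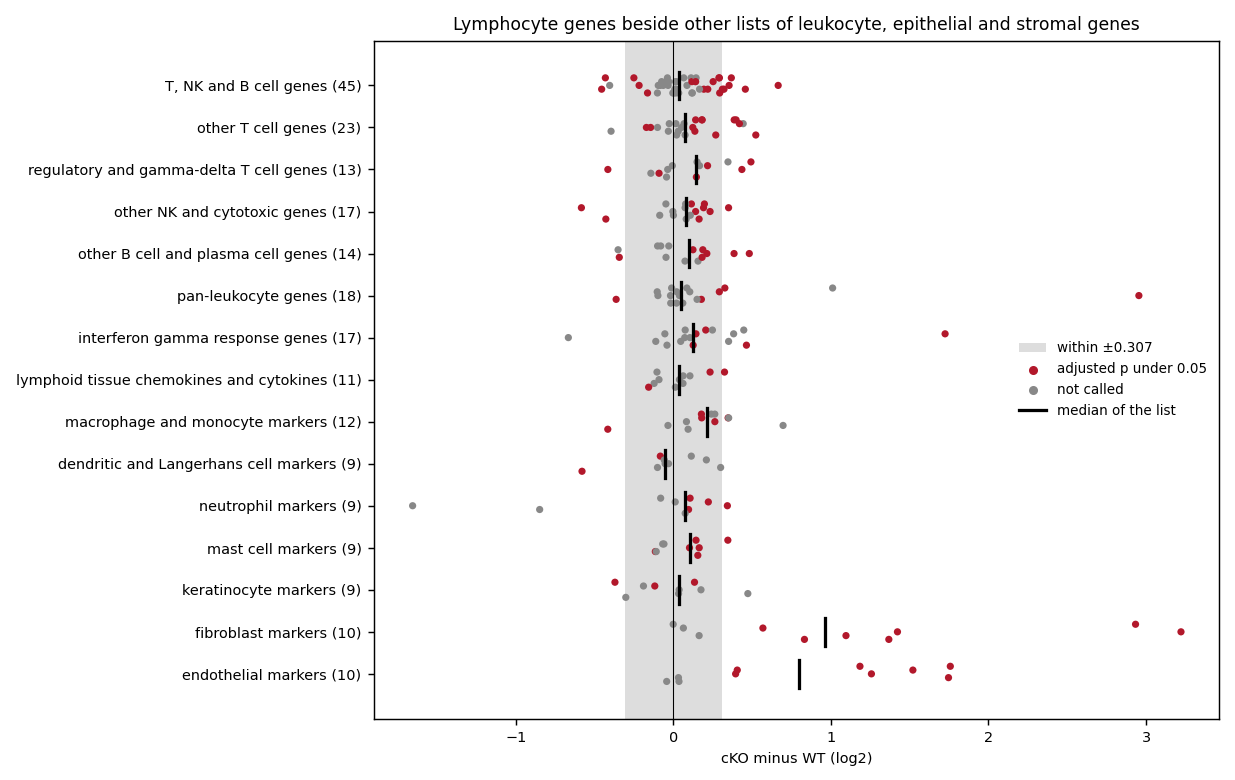
Difference between cKO and WT tumours on the log2 scale (horizontal axis) for each gene of the lymphocyte set and of 14 other lists, with the number of measured genes in brackets. Points are genes, red where the limma adjusted p is under 0.05, and black bars are list medians. The grey band spans the size of the largest nonspecific control difference, a fall, in both directions. The lymphocyte lists centre near 0, between 0.03 and 0.15, and the fibroblast and endothelial lists at 0.96 and 0.80.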

How the data were processed

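The authors deposited log2 values of probe sets made with RMA, per the submitters' processing notes, and no later adjustment is stated in the sources used here. Of 45141 probe sets, 104 were array controls, 28898 had 1 gene symbol in the platform annotation and 551 several. The sample titles give group and replicate number. The probe set with the highest mean across arrays stood for each gene, with no filter. For the comparison of cKO with WT, limma 3.58.1 was run under R 4.3.3 (lmFit, eBayes, two-sided, no covariate), with Benjamini-Hochberg adjustment over 17097 genes and a threshold of 0.05. Other probe sets were adjusted over all 28898. Precision is limited by the number of arrays.

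The term for neighbouring arrays pairs arrays in accession order and leaves the first cKO array single, an arrangement chosen after seeing which neighbours mirror each other. Controls differ from genes in probe GC content, and the GC content of the gene probes was not compared with theirs. The genes and lists were chosen with earlier results of these data known. Values by array are given for genes called in both fits and for Cd3e, Cd4, Cd8a, Cd79a, Ms4a1, Ncr1, Prf1, Gzmb, Ifng and Pdcd1. From other lists up to 3 genes called in both fits were open to naming, by smallest adjusted p. Matching of promoters was by symbol. The fitting code was tested on simulated data. Alternatives were other scalings, filters on dim genes, means over probe sets, a trended prior, array weights, terms for replicate number and neighbouring arrays, other thresholds and background levels, and each array left out. Figures were drawn with matplotlib 3.10.9.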

Additional observations from a re-analysis of the deposited data

Results flagged for a closer look

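Of 90 sets of arrays (45 genes in 2 groups), 3 had an end value that stood apart from the rest by Dixon's criterion, and chance alone sets apart about 1 in 20. Eomes was highest in WT replicate 7 at 6.78, with the next WT array at 5.58. In its other probe set the same array was again the highest, at 5.94 against 4.95 for the next. Cd8a was highest in cKO replicate 8 at 6.54, with the next cKO array at 6.43, and without that array its call was kept. In its other probe sets the highest cKO arrays were replicates 9 and 5. Havcr2, a checkpoint receptor gene, was highest in cKO replicate 6 at 4.47, with the next at 4.23.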

How the results depend on the processing

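The counts of 14 genes higher and 5 lower in cKO tumours became 15 and 9 after quantile normalization, 8 and 3 without genes below the 25th percentile, 10 and 3 without genes not above controls, 16 and 2 with the mean over probe sets, 18 and 10 with array weights, 9 and 3 with neighbouring arrays as a term, 10 and 3 with that term after quantile normalization, 13 and 4 with the last cKO array single instead of the first (chosen after seeing the data), and 0 and 0 over 2-fold. The filters leave fewer genes to count. For the other shifts the cause was not tested. With each array left out in turn the counts were 14 to 16 and 4 to 6. Over the fits without an added term or weights the median difference was 0.02 to 0.09. The counts above background, 22 in WT and 30 in cKO tumours, were 43 and 42 against the control median, which turns their order, 2 and 4 against the highest control, and 31 and 33 when at least 3 of 6 WT or 4 of 7 cKO arrays had to pass. Cd247 turned from -0.46 to 0.011 (limma adjusted p = 0.786) with the mean over its probe sets. Of the 19 called genes, 18 kept their call with each array left out (Il2ra did not), and 8 (Cd3g, Cd6, Cd8a, Klrk1, Lag3, Pax5, Tbx21 and Zap70) kept it under every one of the fits that tested them. That count of 8 leaves out the 2-fold threshold, which no gene passed. Tbx21 was removed by both filters on dim genes and Zap70 by the filter at the 25th percentile, so those fits could not test them. Apart from the mean over probe sets, every fit read a gene by its brightest probe set. A conflicting probe set, as for Cd8a (-0.08), therefore does not count against a gene here. Over 1089 combinations of gene and setting, 30 lost and 30 gained a call and 1 reversed. A further 44 changed sign where neither fit called the gene. Samples with the same replicate number did not deviate together (r between -0.298 and 0.049 in 4 pairs, none best with its own number). This shows no pairing by number but cannot exclude one, since the mirroring of neighbouring arrays could hide it. With the replicate number as a block, on the arrays that share numbers, 9 genes were higher and 2 lower. RMA values carry no counts, and dim genes are limited by signal over background.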

Other observations

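Genes that answer to interferon gamma and genes of lymphoid tissue changed in a minority. Of 17 interferon gamma response genes 5 were higher and none lower by limma, also at an unadjusted p under 0.05 (29.4% called, against 45.8% of all genes), with a median of 0.13. Iigp1, an immunity-related GTPase, rose from 4.17 ± 0.75 (SD, n = 6) to 5.89 ± 0.67 (SD, n = 7) with overlapping groups (limma adjusted p = 0.00201, and 0.0298 with neighbouring arrays as a term). Iigp1 was above background on only some WT arrays. Its relative Irgm1 rose by 0.46 from a level at or under background (limma adjusted p = 0.00105, and 0.0225 with the term). The chemokine genes Cxcl9 and Cxcl10, which draw activated T cells (named after their values were seen), varied widely and did not pass: Cxcl9 read 6.76 ± 0.99 and 6.09 ± 0.61 (limma adjusted p = 0.211), and Cxcl10 read 8.15 ± 1.02 and 8.20 ± 0.98 (limma adjusted p = 0.95).

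Of 11 chemokine and cytokine genes of lymphoid tissue 2 were higher and 1 lower (27.3% called, against 45.8% of all genes). Cxcl13, which draws B cells into follicles, rose by 0.33 from 5.71 ± 0.14 (limma adjusted p = 0.00131, and 0.0286 with the term). Il21, a cytokine of follicular helper T cells, rose by 0.23 from a level at or under background (limma adjusted p = 0.000103), and Il2, the T cell growth factor, fell by 0.16 (limma adjusted p = 0.000367), both also with the term.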
